A study of Mus musculus with 18 samples.

Results

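The genes described here build, attach, remodel and release the glycosylphosphatidylinositol (GPI) anchor, apart from Pigp, which is kept for reference. They were chosen by name, 31 genes in all, and each was matched to a probe set assigned to a single gene, out of 19475 such genes on the array. RNA was measured on 18 Affymetrix gene arrays from bone marrow-derived macrophages of mice with a mixed background, 94% C57BL/6 and 6% 129/Ola, at day 7 of differentiation in medium with L929-conditioned medium. The 6 groups of 3 arrays were Wbp7-/- cells (KO) left untreated or given 10 ug/ml lipopolysaccharide (LPS) for 2 h or 4 h, and Wbp7+/- cells (HET) left untreated or given the same LPS for 2 h or 4 h. HET cells carry 1 intact Wbp7 allele, so the comparison is with heterozygous and not with wild-type cells, and the labels do not give the animals' age or sex, or the number of animals behind the cultures. The sources used here do not say how the null allele was made.

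The GPI anchor is a glycolipid that holds many proteins on the outer face of the plasma membrane, Cd14 among them, the co-receptor that hands LPS to the Toll-like receptor 4 complex of macrophages. It is built stepwise on phosphatidylinositol in the membrane of the endoplasmic reticulum. N-acetylglucosamine is added and de-acetylated, the inositol is acylated, mannoses and ethanolamine phosphates are added, and a transamidase swaps the finished anchor for the C-terminal signal of a protein, after which the lipid and glycan are trimmed on the way to the cell surface. Wbp7, now named Kmt2b, is a histone H3 lysine 4 methyltransferase with a domain that binds unmethylated CpG, and Pigp belongs to the transferase of the opening step.

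All values are log2 signals, and a difference of log2 values is a log2 fold change. "Passed" means a Benjamini-Hochberg adjusted p under 0.05 over all 19475 genes in one limma model fitted to the 6 groups together. The labels do not say that replicates came from separate cultures or animals, so the p-values measure only the spread between these arrays. In RNA from a whole culture, fewer cells of a type and less RNA per cell cannot be told apart.

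The arrays were close in overall level, with medians between 8.05 and 8.13. The 9 measured macrophage markers averaged 13.0 to 13.5 in every array, against 5.68 to 5.92 for 6 mast cell and basophil markers and 6.83 to 7.10 for 7 lymphocyte markers. Of the other marker lists, 10 genes of neutrophils and progenitors averaged 7.92 to 8.99, 7 of stromal cells 7.47 to 8.64, 6 of dendritic cells 7.38 to 8.20 and 3 of erythroid cells 7.02 to 7.47. Pigp was lower in KO than in HET in untreated cells (−0.56, adjusted p = 0.0147), and a second probe set assigned to Pigp differed by −4.16 (SE 0.359). The probe set of Wbp7 itself did not pass between genotypes (−0.24, −0.06 and −0.09 untreated, at 2 h and at 4 h, adjusted p = 1, 0.915 and 0.718). The sources used here do not say whether that probe set lies in the deleted part, so it does not check the genotype labels. Cd14 did not pass between genotypes either (−0.11, −0.26 and −0.07, adjusted p = 1, 0.53 and 0.8).

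The 3 HET arrays numbered replicate 1 stood apart from the other HET arrays. Pairs of arrays of 1 group had an SD of gene-wise differences of 0.435 to 0.531 when they held such an array (6 pairs) and of 0.175 to 0.279 otherwise (12 pairs). Among the 31 GPI anchor genes, 9 were more than 0.5 below the mean of HET replicates 2 and 3 at 2 h and 1 (Pigv) was more than 0.5 above it, together 32.3% of the genes against 16.8% of all genes. At 4 h 10 were more than 0.5 below it (32.3% against 17.02% of all genes). In untreated cells only Pgap1 was, or 3.23% of the genes against 10.6% of all genes. The shares of all genes count departures either way. The lowest was Pigb, the enzyme that adds the third mannose, at −1.02 at 2 h and −1.27 at 4 h. Pigl, Pigf, Piga and Gpaa1 followed at 2 h, with −0.81, −0.73, −0.72 and −0.63, and Pigf, Pigl, Gpaa1 and Pigq at 4 h, with −1.08, −0.91, −0.87 and −0.79. A list of 29 cell cycle genes varied more among the HET arrays than among the KO arrays. Its mean per array spanned 11.6 to 11.6 in untreated KO and 8.95 to 11.8 in untreated HET. At 2 h it spanned 11.4 to 11.5 in KO and 8.47 to 11.4 in HET, and at 4 h 10.9 to 11.0 in KO and 8.30 to 10.8 in HET. These spans do not give the replicate number of the lowest HET array. The list's median KO minus HET difference was 0.84, 1.02 and 1.03 with no gene passed, and its part in the results below was not tested. Because the HET arrays numbered replicate 1 stood apart, differences between genotypes are given also without them for the GPI anchor genes named below.

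**Figure D1:**
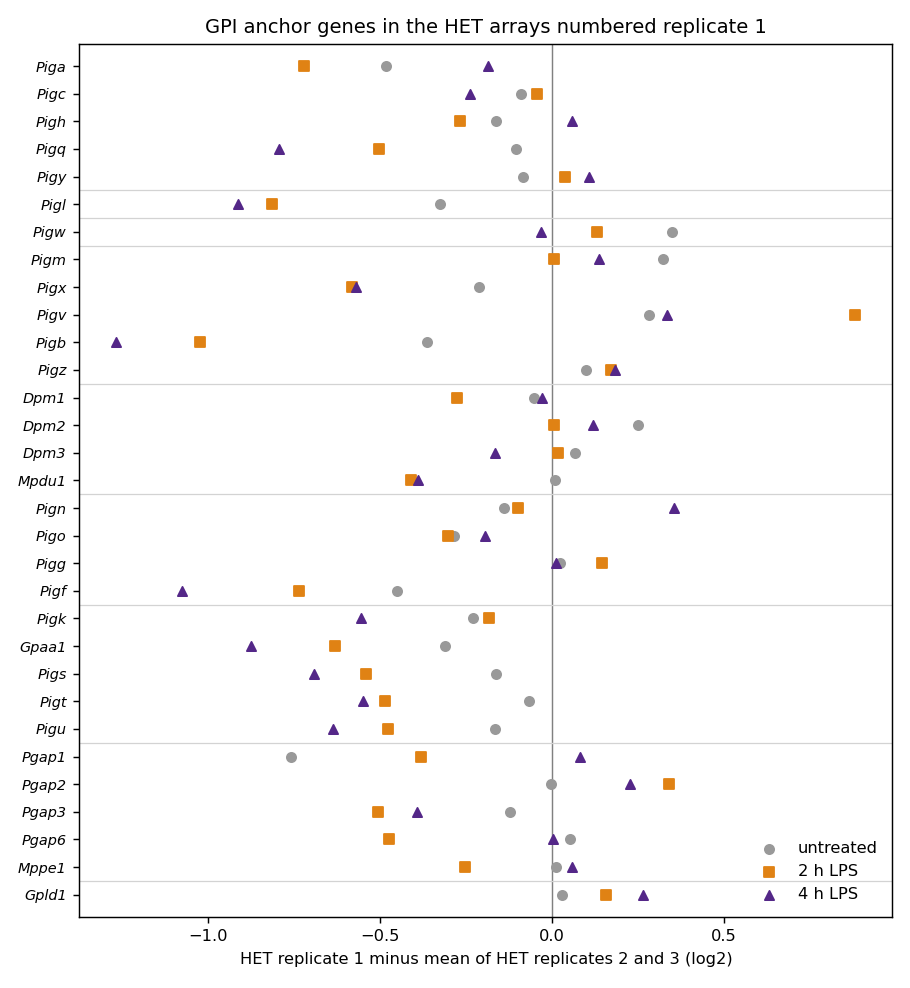
Each point is the log2 signal of a GPI anchor gene in a HET array numbered replicate 1 minus the mean of HET replicates 2 and 3, by gene (rows, grouped by step of the pathway) and time (grey circles untreated, orange squares 2 h, purple triangles 4 h). Pigb lies farthest to the left, at −1.02 and −1.27 with LPS, and Pigv farthest to the right, at 0.88 at 2 h.

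Between genotypes, 1 GPI anchor gene differed at every time. Pigz, which adds the fourth, side-chain mannose of the anchor, was lower in KO than in HET untreated, at 2 h and at 4 h. In untreated cells it was the single gene of the 31 that passed, beside 0.416% of all genes (0.0565% higher and 0.359% lower). At 2 h Pigz and 1 other, Pigh, passed, beside 2.76% of all genes (1.22% higher and 1.54% lower). At 4 h Pigz alone passed, beside 2.42% of all genes (1.32% higher and 1.1% lower). These counts of 1, 2 and 1 of 31 (3.23%, 6.45% and 3.23%) rest on so few genes that no more than the named genes can be read from them.

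Pigz had log2 signals of 8.28, 8.19 and 8.09 in untreated KO cells, against 8.99, 8.79 and 8.99 in untreated HET cells. At 2 h the values were 8.19, 8.26 and 8.05 in KO and 8.77, 8.68 and 8.52 in HET. At 4 h they were 8.18, 8.06 and 7.96 in KO and 8.73, 8.49 and 8.59 in HET. Every KO array thus lay below every HET array of its time, and the highest KO value of all, 8.28, lay below the lowest HET value, 8.49. KO minus HET was −0.74 in untreated cells (SE 0.0978) and −0.49 and −0.54 with LPS for 2 h and 4 h, with adjusted p = 0.0021, 0.0168 and 0.00975, so that KO had 0.600, 0.712 and 0.688 times the HET level. Without HET replicate 1 at all times the call stood at each time, with adjusted p = 0.00377, 0.0433 and 0.017. Averaged over the times, as 3 KO means against 3 HET means, the difference was −0.59 (SE 0.0813), with adjusted p = 0.0693 in that smaller fit, 0.0427 without HET replicate 1, and 0.000398 over all arrays with the replicate number as a block within genotype. The untreated call was lost after quantile normalization of the deposited values (−0.65, adjusted p = 0.053). The 2 h call was lost without HET replicate 1 (−0.43, adjusted p = 0.0887), KO replicate 1 (−0.50, adjusted p = 0.0568) or KO replicate 3 (−0.43, adjusted p = 0.075) of that time, and the 4 h call without KO replicate 2 (−0.54, adjusted p = 0.0565) or KO replicate 3 (−0.48, adjusted p = 0.0532). In fits of the arrays of 1 contrast alone, none of the 3 passed (adjusted p = 0.0678, 0.192 and 0.121).

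**Figure D2:**
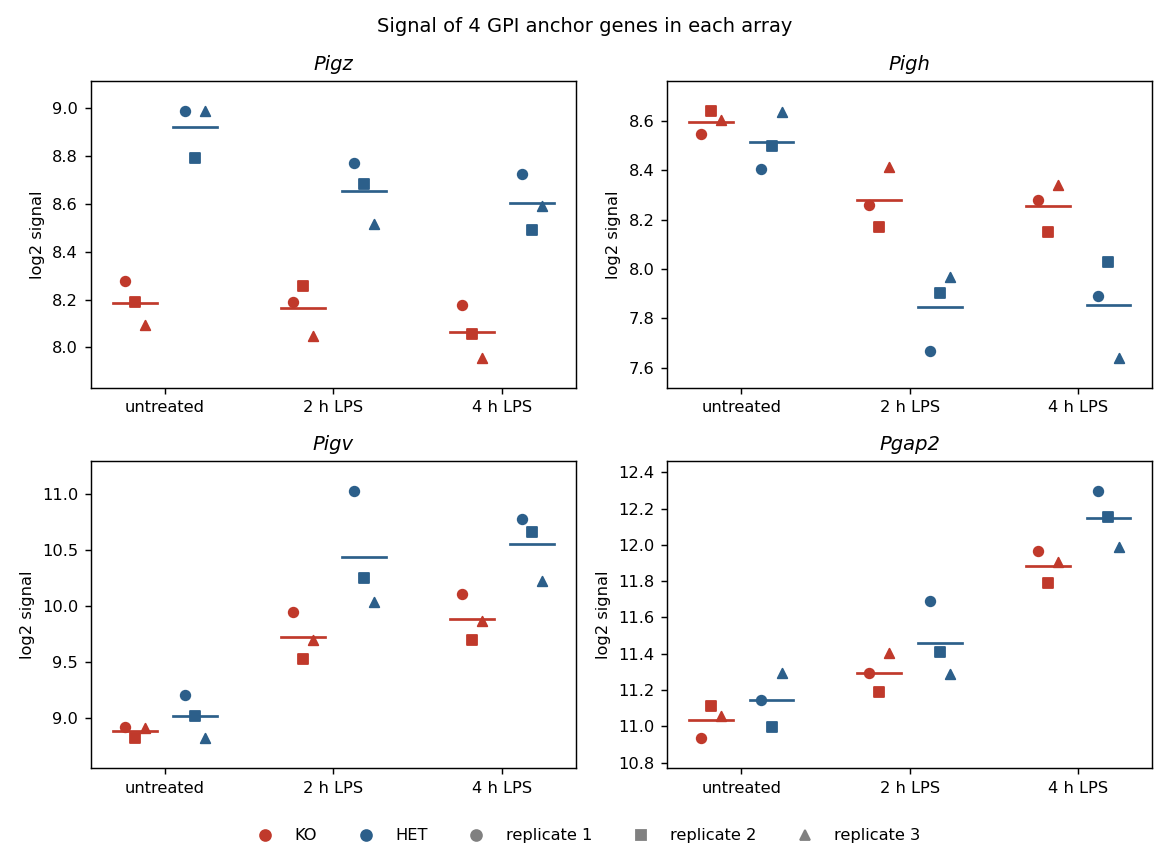
Log2 signal of Pigz, Pigh, Pigv and Pgap2 in each array, with KO (red) left of HET (blue) at each time, the marker shape giving the replicate number and the line the mean of 3 arrays. The KO arrays of Pigz all lie below its HET arrays, whereas Pigv and Pgap2 lie higher with LPS in both genotypes.

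Pigh, a subunit of the enzyme that transfers N-acetylglucosamine in the opening step, differed the other way at 2 h. It had 8.26, 8.17 and 8.41 in KO at 2 h, against 7.67, 7.90 and 7.97 in HET. At 4 h it had 8.28, 8.15 and 8.34 in KO and 7.89, 8.03 and 7.64 in HET, whereas the untreated values of 8.55, 8.64 and 8.60 in KO overlapped those of 8.41, 8.50 and 8.64 in HET. KO minus HET was 0.08, 0.44 (SE 0.1098) and 0.40 for untreated cells, 2 h and 4 h, with adjusted p = 1, 0.0467 and 0.0656. The 2 h call lay close to the threshold. It was lost without HET replicate 1 at all times (0.35, adjusted p = 0.15), where Pigh at 4 h passed instead (adjusted p = 0.0496). It was also lost with arrays centred on their medians (adjusted p = 0.081), with quantile normalization (adjusted p = 0.0754), with the replicate number as a block within genotype (adjusted p = 0.0725), and without any one of 5 of the 6 arrays compared: HET replicate 1 (0.35, adjusted p = 0.248), HET replicate 3 (0.50, adjusted p = 0.055), and KO replicates 1, 2 and 3 (0.45, 0.49 and 0.37, adjusted p = 0.132, 0.077 and 0.205).

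Promoter windows of the named genes are shown because Wbp7's protein binds CpG-rich DNA. RefSeq windows on GRCm38.p6, holding the 250 bases before a transcript start, were at hand for 25 of the 31 genes (32 windows). The window of Pigz, the gene lower in KO at each time, lies on the plus strand of chr16:31933601-31933850, and that of Pigh on the minus strand of chr12:79089671-79089920. Capitals mark each CG.
Pigz: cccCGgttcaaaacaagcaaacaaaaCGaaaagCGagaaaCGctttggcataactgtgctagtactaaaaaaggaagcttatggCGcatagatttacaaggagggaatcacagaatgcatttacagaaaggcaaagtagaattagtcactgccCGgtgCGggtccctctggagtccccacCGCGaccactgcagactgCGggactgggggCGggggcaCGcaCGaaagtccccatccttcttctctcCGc
Pigh: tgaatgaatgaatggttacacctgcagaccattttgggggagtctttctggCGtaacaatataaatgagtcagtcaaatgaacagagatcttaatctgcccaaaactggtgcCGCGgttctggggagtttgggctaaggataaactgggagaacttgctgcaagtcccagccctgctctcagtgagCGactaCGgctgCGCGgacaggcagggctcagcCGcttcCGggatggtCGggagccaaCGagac
Pigz has 14 CG and Pigh 11, and in both most of them stand in the last part of the window, next to the start. The windows of the GPI anchor genes held 5 to 37 CG with a median of 16, against a median of 6 and quartiles of 2 and 16 over all 32851 windows. Pigz and Pigh were thus both below the median of the pathway's windows in this count. Both strands of each window were searched for 5 motifs. The GC box was taken as GGGCGG and the CCAAT box as its name spells it, and the AP-1 site as TGANTCA, where N is any base. The site of interferon regulatory factors was taken as AANNGAAA. An NF-kB site was searched as well, which can share letters with a GC box. A GC box was found in 46.9% of the 32 windows and in 32.7% of all windows, a CCAAT box in 28.1% against 33.8%. Pigz held a GC box and a match to AANNGAAA, and Pigh an AP-1 site, found in 3.12% of the pathway's windows and in 6.75% of all windows. These matches describe letters and show no binding.

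No other GPI anchor gene passed between genotypes at any time in the model of all arrays. Pigv, Pign, Pgap1 and Mppe1 passed in some of the alternative fits given below. In the opening step, Piga, the catalytic subunit, had a KO minus HET difference of 0.14, 0.46 and 0.17 untreated, at 2 h and at 4 h (adjusted p = 1, 0.307 and 0.603), and without HET replicate 1 at all times the differences of Piga were −0.02, 0.22 and 0.11 (adjusted p = 1, 0.702 and 0.807). Pigc, Pigq and Pigy lay between −0.08 and 0.36, or between −0.11 and 0.19 without those arrays. Pigq had 11.61, 11.42 and 11.53 in KO at 2 h and 10.83, 11.40 and 11.25 in HET (0.36, adjusted p = 0.394, or 0.19 and 0.513 without HET replicate 1). The KO arrays of Pigq were all higher, by little over HET replicate 2 and by much over HET replicate 1. Pigl, which removes the acetyl group, had 9.31, 9.47 and 9.45 in KO at 2 h and 8.49, 9.14 and 9.46 in HET, so that the groups overlapped (0.38, adjusted p = 0.538, or 0.11 and 0.873 without HET replicate 1).

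Pigv, which adds the second mannose, did not pass between genotypes in that model, though its KO and HET arrays did not overlap with LPS. Its values were 9.94, 9.53 and 9.69 in KO at 2 h, against 11.02, 10.25 and 10.04 in HET, and 10.10, 9.69 and 9.87 in KO at 4 h, against 10.78, 10.66 and 10.23 in HET. The KO arrays were the lower ones at both times, with differences of −0.71 (95% interval −1.17 to −0.26, adjusted p = 0.0937) and −0.67 (−1.12 to −0.22, adjusted p = 0.105), whereas the untreated difference was −0.13 (adjusted p = 1). Pigv passed at both times with the replicate number as a block over all arrays (adjusted p = 0.0186 and 0.0237), at 4 h with arrays weighted by quality (−0.66, adjusted p = 0.0211) and at 2 h without HET replicate 3 of that time (−0.91, adjusted p = 0.0479). A block over all arrays treats a number as shared by KO and HET, but only 6 of 27 such pairs deviated together (r above 0.1). Without HET replicate 1 at all times the differences of Pigv with LPS were −0.42 and −0.56 (adjusted p = 0.221 and 0.0594).

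Among the genes for mannose donors, Dpm3 had −0.02 at 2 h (adjusted p = 0.952, 95% interval −0.24 to 0.20), and also −0.02 without HET replicate 1. Dpm1 had differences of 0.22 and 0.25 with LPS (adjusted p = 0.247 and 0.152) with no overlap, or 0.13 and 0.24 (adjusted p = 0.643 and 0.168) without HET replicate 1. Of the ethanolamine phosphate transferases, Pign had −0.32 at 4 h (adjusted p = 0.0729) with no overlap, or −0.21 (adjusted p = 0.122) without HET replicate 1. Pign passed at 4 h, lower in KO, without HET replicate 2 of that time. Pigo, which acts on the third mannose, had 8.85, 8.83 and 8.84 in KO at 2 h and 8.39, 8.73 and 8.66 in HET (0.25, adjusted p = 0.371, or 0.15 and 0.699 without HET replicate 1). The 5 transamidase subunits had differences above 0 in 4 of 5 untreated and 5 of 5 at 2 h and at 4 h, between 0.10 and 0.31 with LPS, with none passed. Without HET replicate 1 the direction did not hold, with 3, 4 and 1 of the 5 above 0, between −0.03 and 0.09 at 2 h and between −0.09 and 0.10 at 4 h. Gpaa1, one of them, had 11.55, 11.37 and 11.39 in KO at 2 h and 10.72, 11.41 and 11.28 in HET (0.30, adjusted p = 0.574, or 0.09 and 0.841 without HET replicate 1), where HET replicate 1 was low and the others overlapped KO.

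Pgap1, the deacylase that removes the acyl chain from inositol once the protein is attached, came closest among the remodelling genes. It had 10.09, 9.64 and 9.68 in untreated KO cells, against 9.79, 10.58 and 10.51 in untreated HET cells. At 2 h it had 9.61, 9.58 and 9.37 in KO and 9.88, 10.10 and 10.43 in HET, and at 4 h 9.35, 9.49 and 9.61 in KO and 10.17, 9.89 and 10.28 in HET. With LPS all KO arrays lay below all HET arrays, with differences of −0.61 and −0.63 (adjusted p = 0.121 and 0.101). Without HET replicate 1 both passed, at −0.74 (adjusted p = 0.0281) and −0.60 (adjusted p = 0.0465), as did the average over the times (−0.69, adjusted p = 0.0365), where it was −0.58 with all arrays (adjusted p = 0.172). With all arrays weighted by quality, Pgap1 passed untreated (−0.72, adjusted p = 0.0322), at 2 h (−0.65, adjusted p = 0.0248) and for the average (−0.61, adjusted p = 0.00892). A second, dim probe set of Pgap1, with means of 4.15 to 4.66, had differences of −0.18, −0.27 and 0.02. Gpld1, the phospholipase D that releases anchored proteins, was the dimmest gene of the set (6.65 to 6.91 in KO, 6.68 to 7.13 in HET) and differed by −0.15 at most (adjusted p = 0.335), or between −0.06 and 0.06 without HET replicate 1.

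**Figure D3:**
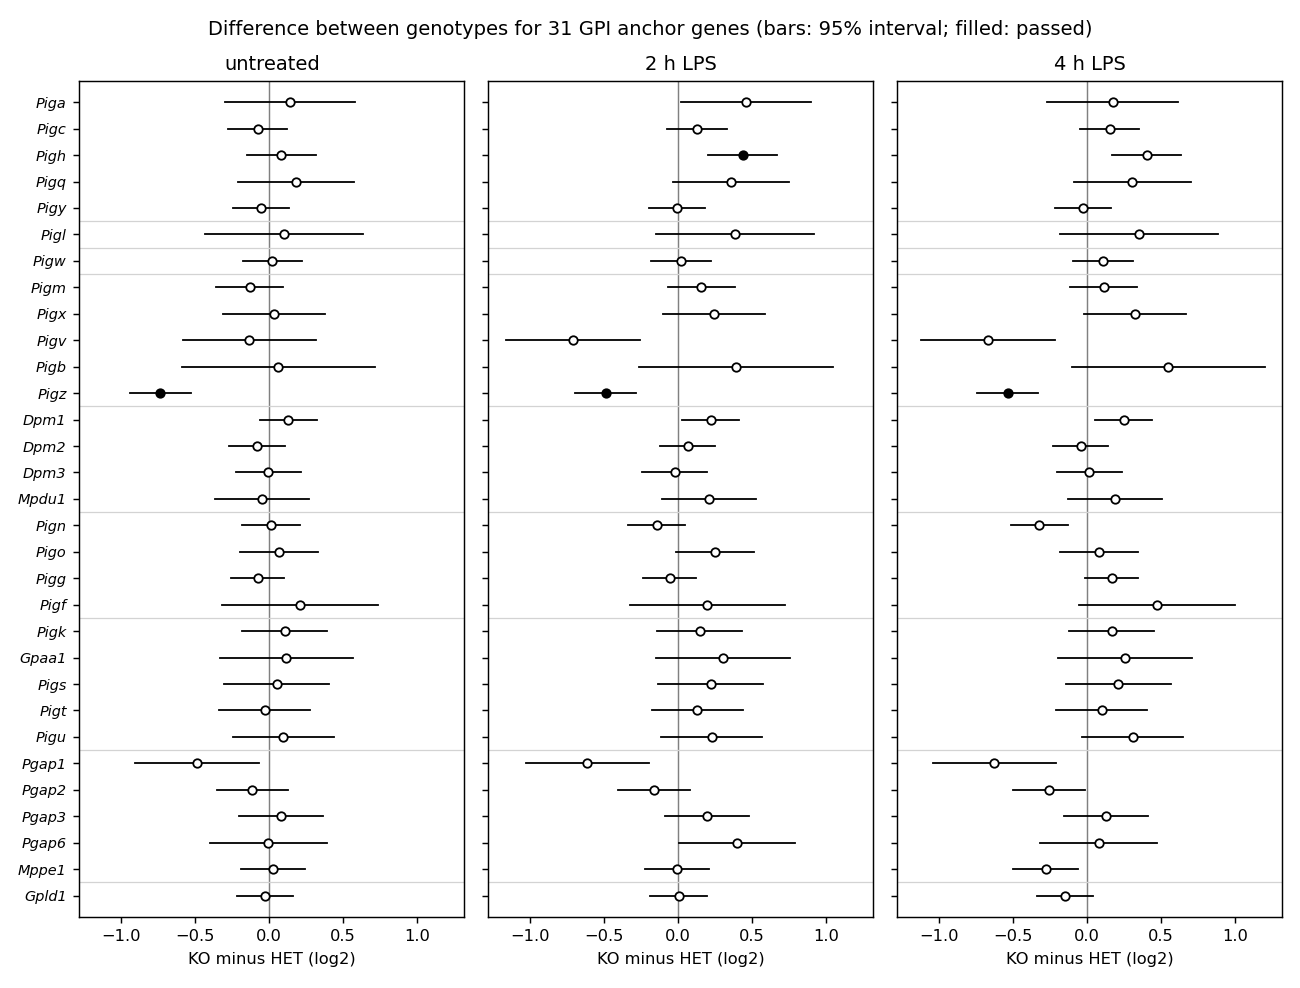
KO minus HET difference (log2) of the 31 genes in untreated cells, at 2 h and at 4 h LPS, with 95% intervals, filled points marking genes that passed and lines separating the steps of the pathway. Pigz is to the left of 0 in all panels, Pigh passed at 2 h, and Pigv and Pgap1 lie left of 0 with LPS without having passed.

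As a set, the genes had a median KO minus HET difference of 0.02 untreated, 0.16 at 2 h and 0.13 at 4 h, against −0.02, 0.00 and −0.06 for all genes, with 17, 22 and 22 of 31 above 0. Without HET replicate 1 at all times the medians were −0.02, 0.06 and 0.01, with 13, 21 and 17 of 31 above 0, so that little of the shift with LPS was left. KO and HET arrays did not overlap for 2, 10 and 11 of the 31 genes, beside 8.63%, 19.9% and 27.3% of all genes. Averaged over the times, none of the 31 passed in limma (beside 0.154% of all genes). Of the 31, 6 had an unadjusted limma p under 0.05, beside 2272 of all 19475 genes. Arrays weighted by quality gave 2 passed genes untreated, 3 at 2 h, 3 at 4 h and 2 for the average, beside 0.97%, 4.38%, 6.43% and 3.6% of all genes. With arrays centred or quantile normalized, the 2 h count was 0 higher and 1 lower in place of 1 and 1, and quantile normalization gave 1 higher (Pigh) and 2 lower (Pigz and Mppe1, Mppe1 at −0.44 with adjusted p = 0.0345, against −0.28 as deposited and −0.26 without HET replicate 1) at 4 h in place of 0 and 1.

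With LPS for 4 h, Pigv and Pgap2 rose in KO and in HET, and Pigh, Piga, Pigw, Dpm2 and Pgap6 fell in both. In HET 2 more genes rose, Pign and Mppe1, and 8 more fell. After 4 h, 7 of 31 genes passed in KO (2 higher and 5 lower, 22.6%), beside 15.8% of all genes (6.48% higher and 9.28% lower). In HET 17 of 31 passed (4 higher and 13 lower, 54.8%), beside 36.4% of all genes (15.7% higher and 20.7% lower). After 2 h, 1 gene passed in KO, Pigv, beside 3.35% of all genes (2% higher and 1.35% lower), and 4 in HET (1 higher and 3 lower), beside 15.6% (5.56% higher and 10% lower). The counts at 2 h and in KO at 4 h were near the background or rested on few genes. The share in HET at 4 h was above that of all genes, but many of all genes were dim, whereas only 1 of the 31 (Gpld1) lay below the 40th percentile of signal. Among the genes above that percentile, 17 of 30 GPI anchor genes passed in HET at 4 h (13 lower, 43.3%), beside 51% of all genes (33.9% lower), and 7 of 30 in KO (5 lower, 16.7%), beside 26.3% (16.1% lower). The median change at 4 h was −0.16 in KO and −0.32 in HET, against 0.02 and 0.09 for all genes, and it stayed below 0 after centring (−0.14 and −0.29) and quantile normalization (−0.11 and −0.12). Above the 40th percentile the medians were −0.18 in KO and −0.32 in HET for the pathway, against −0.08 and −0.16 for all genes, which there lay below 0 as well. With arrays centred or quantile normalized, 2 genes were higher and 2 lower in KO at 4 h (Dpm2 and Pgap6 lower). Markers of macrophages and of other cells moved with LPS too. Of the 9 macrophage markers, 3 passed as higher and 1 as lower in KO at 4 h (Adgre1, Mertk, Fcgr1 and Spi1). In HET at 4 h Fcgr1 passed as higher, and so did Ms4a1 among the 7 lymphocyte genes. At 4 h the 10 neutrophil and progenitor genes averaged 8.57 to 8.99 in KO, against 8.34 to 8.70 in untreated KO, and 8.58 to 8.90 in HET, against 7.92 to 8.62 in untreated HET. All 10 had changes above 0 in both genotypes, and in HET S100a9 and Camp passed. The 7 stromal genes averaged 7.82 to 8.53 in KO at 4 h, against 7.52 to 8.16 untreated, and 7.998 to 8.64 in HET, against 7.47 to 8.04 untreated, with all 7 changes above 0 (Pdgfrb passed in both and Dcn in HET). Of the 6 dendritic cell genes all had changes above 0, with Ccr7 and Xcr1 passed in HET. The part of these genes in the LPS results was not tested.

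The same replicate number marked arrays of 1 genotype that deviated together, and a fit with that number as a block within genotype passed more genes. It passed 1 gene in KO and 11 in HET at 2 h (2 higher and 9 lower) and 13 in KO (2 higher and 11 lower) and 24 in HET (5 higher and 19 lower) at 4 h. The same fit passed 8.14% of all genes in KO and 27.8% in HET at 2 h, and 28.6% and 55% at 4 h, so that the gain was not limited to the pathway. The genes added at 4 h in KO were Pigc, Pigx, Pigb, Mpdu1, Pigo and Pigu, all lower. Those added in HET were Pigq, Pigo, Pigf, Gpaa1, Pigs and Pigt, lower, and Gpld1, higher.

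**Figure D4:**
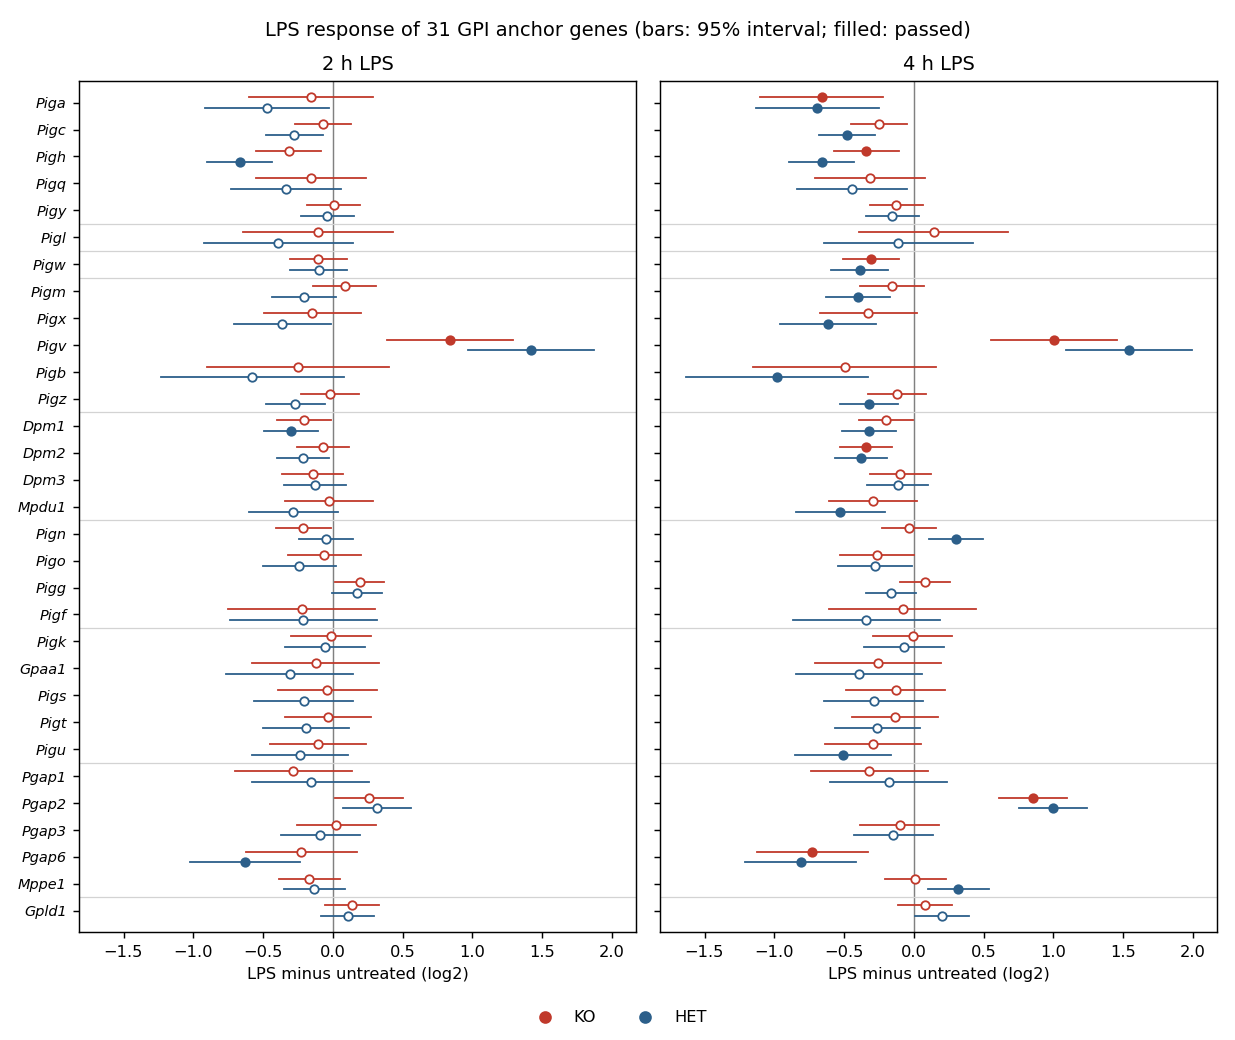
LPS minus untreated difference (log2) of the 31 genes at 2 h and 4 h, in KO (red, above) and HET (blue, below), with 95% intervals and filled points for genes that passed. Pigv and, at 4 h, Pgap2 lie to the right of the other genes, and most others lie left of 0.

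Pigv rose most in both genotypes. It had 8.92, 8.82 and 8.90 in untreated KO cells and 9.20, 9.02 and 8.82 in untreated HET cells, below every LPS-treated value of the same genotype given above. The rise was 0.84 in KO at 2 h (SE 0.213, adjusted p = 0.0397), 1.01 in KO at 4 h (adjusted p = 0.00373), 1.42 in HET at 2 h (adjusted p = 0.000245) and 1.54 in HET at 4 h (adjusted p = 4.6e-05), or 1.79-, 2.01-, 2.68- and 2.91-fold. The KO 2 h call was lost with any 1 of its 6 arrays left out (0.73 to 0.94, adjusted p = 0.0563 to 0.202) and with quantile normalization (adjusted p = 0.0528), while with the replicate block it had adjusted p = 0.000442. KO minus HET in this response was −0.58 at 2 h and −0.54 at 4 h and did not pass (adjusted p = 0.949 and 0.766). HET replicate 1 at 2 h was 0.88 above the mean of the other HET arrays. RefSeq gives 2 starts for Pigv. The window before the more upstream of them, on the minus strand of chr4:133673167-133673416, is shown because it belongs to the gene with the largest LPS response of the set. Capitals mark matches to the site of interferon regulatory factors, all read on the opposite strand.
Pigv: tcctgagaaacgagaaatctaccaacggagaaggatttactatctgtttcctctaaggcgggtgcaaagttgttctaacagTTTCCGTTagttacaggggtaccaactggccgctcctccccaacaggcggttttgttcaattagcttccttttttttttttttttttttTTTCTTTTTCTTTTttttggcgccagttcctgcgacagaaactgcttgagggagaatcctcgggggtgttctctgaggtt
Part of the matches lie inside a long run of T and C. Such a match was found in 3 of the pathway's 32 windows (9.38%) and in 21.3% of all windows. The window before the other start held a GC box and an NF-kB match, the second found in 3 of 32 windows and in 7.25% of all windows.

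Pgap2, needed in the Golgi to put a saturated fatty acid back on the anchor's lipid, rose later. It had 10.93, 11.11 and 11.06 in untreated KO cells, 11.30, 11.19 and 11.40 at 2 h and 11.97, 11.79 and 11.90 at 4 h. In HET it had 11.15, 11.00 and 11.30 untreated, 11.69, 11.41 and 11.29 at 2 h and 12.30, 12.15 and 11.99 at 4 h. All 4 h arrays lay above all untreated and 2 h arrays of their genotype. The rise at 4 h was 0.85 in KO (adjusted p = 8.03e-05) and 1.00 in HET (adjusted p = 8.46e-06), or 1.80- and 2.00-fold. After 2 h it was 0.26 in KO and 0.31 in HET (adjusted p = 0.362 and 0.0805, the last 0.039 with the replicate block). Both 4 h calls of Pgap2 and of Pigv stood whichever array was left out and with either other scaling.

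In the opening step, Pigh and Piga passed at 4 h in both genotypes and Pigc in HET. Pigh changed by −0.34 in KO at 4 h (adjusted p = 0.0462) and by −0.66 in HET (adjusted p = 0.000243), and the 2 h values were −0.32 in KO (adjusted p = 0.187) and −0.67 in HET (adjusted p = 0.000546), with the array values given above and no overlap with untreated cells. Piga had 8.32, 8.63 and 8.44 in untreated KO cells, 8.10, 8.51 and 8.32 at 2 h and 7.52, 8.07 and 7.82 at 4 h. Its HET values were 8.002, 8.35 and 8.62 untreated, 7.37, 7.93 and 8.25 at 2 h and 7.51, 7.59 and 7.80 at 4 h. Its 2 h values overlapped the untreated ones in both genotypes, and its 4 h values did not. Piga thus fell at 4 h in KO (−0.66, adjusted p = 0.0418) and in HET (−0.69, adjusted p = 0.0173). Pigc, another subunit of the complex, had 8.14, 8.38 and 8.32 in untreated KO cells, 8.21, 8.17 and 8.25 at 2 h and 8.05, 8.05 and 7.99 at 4 h (−0.25 at 4 h, adjusted p = 0.0947, or 0.0382 with the block). In HET its values were 8.30, 8.25 and 8.53 untreated, 8.05, 8.01 and 8.18 at 2 h and 7.72, 7.97 and 7.95 at 4 h (−0.48, adjusted p = 0.00103), so that it passed in HET alone without the block. Pigq and Pigy did not pass in either genotype, and Pigl, the next enzyme, had 0.14 in KO and −0.11 in HET at 4 h.

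The KO calls of Pigh and Piga at 4 h were sensitive to scaling and to single arrays. With arrays centred they were lost (−0.33 and −0.65, adjusted p = 0.0605 and 0.051), as with quantile normalization (−0.24 and −0.60, adjusted p = 0.198 and 0.0941). That of Pigh was also lost without any 1 of its 6 arrays (−0.29 to −0.38, adjusted p = 0.0642 to 0.158), and that of Piga without untreated replicates 1, 2 or 3 (−0.73, −0.58 and −0.67, adjusted p = 0.0595, 0.148 and 0.103) or 4 h replicates 1 or 3 (−0.52 and −0.67, adjusted p = 0.201 and 0.0952). The HET call of Piga was lost without 4 h replicate 1 (−0.63, adjusted p = 0.0658) or untreated replicate 3 (−0.55, adjusted p = 0.0875). With the block within genotype Pigh had adjusted p = 0.0248 in KO and Piga 0.000182 in KO and 5.58e-05 in HET.

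Pigw, the acyltransferase that acylates the inositol, fell at 4 h in both genotypes. It had 8.55, 8.53 and 8.72 in untreated KO cells, 8.52, 8.45 and 8.53 at 2 h and 8.31, 8.29 and 8.29 at 4 h (−0.30, adjusted p = 0.0393). The HET arrays gave 8.81, 8.51 and 8.42 untreated, 8.57, 8.40 and 8.47 at 2 h and 8.17, 8.28 and 8.12 at 4 h (−0.39, adjusted p = 0.00487). In KO the 3 arrays at 4 h lay close together and below all others, and the call was lost without any 1 of the 6 arrays (adjusted p = 0.0571 to 0.181), with arrays centred (−0.29, adjusted p = 0.0675) or with quantile normalization (−0.20, adjusted p = 0.289).

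Of the mannosyltransferases other than Pigv, Pigm and its partner Pigx, Pigb and Pigz fell at 4 h in HET. Pigm, which adds the first mannose, had 10.22, 10.27 and 10.38 in untreated KO cells, 10.34, 10.35 and 10.42 at 2 h and 9.89, 10.26 and 10.24 at 4 h (−0.16, adjusted p = 0.397). In HET it had 10.63, 10.31 and 10.31 untreated, 10.22, 10.29 and 10.13 at 2 h and 10.11, 9.97 and 9.97 at 4 h (−0.40, adjusted p = 0.00925). The 4 h arrays of HET lay below its untreated and 2 h arrays, and those of KO overlapped. The HET change of Pigm was −0.17 after quantile normalization (adjusted p = 0.329). Pigx, which stabilizes Pigm, had 10.11, 9.99 and 10.06 in untreated KO cells, 9.87, 9.93 and 9.92 at 2 h and 9.60, 9.79 and 9.79 at 4 h (−0.33, adjusted p = 0.22, or 0.0217 with the block). Its HET values were 9.88, 10.16 and 10.02 untreated, 9.27, 9.75 and 9.96 at 2 h and 9.03, 9.60 and 9.59 at 4 h (−0.62, adjusted p = 0.00815). The untreated and 4 h arrays of Pigx did not overlap in either genotype. Pigb had 10.06, 10.21 and 10.08 in untreated KO cells, 9.91, 9.83 and 9.88 at 2 h and 9.34, 9.84 and 9.69 at 4 h (−0.49, adjusted p = 0.344, or 0.0273 with the block). The HET arrays gave 9.81, 10.06 and 10.29 untreated, 8.80, 9.73 and 9.91 at 2 h and 8.23, 9.35 and 9.65 at 4 h (−0.98, adjusted p = 0.0216). HET replicate 1 was the lowest array of Pigb at each time, and without it at 4 h alone the change was −0.56 (adjusted p = 0.124). Without it at all times Pigb passed in KO and in HET (adjusted p = 0.00712 and 0.00271). The HET call of Pigb was also lost with quantile normalization (−0.78, adjusted p = 0.0509) and without untreated replicate 2 (−0.98, adjusted p = 0.054) or 3 (−0.86, adjusted p = 0.0819). Pigz fell in HET at 4 h (−0.32, adjusted p = 0.0186), with −0.08 after quantile normalization (adjusted p = 0.688), and its call was lost without untreated replicates 1 or 3 or 4 h replicate 2 (−0.29, −0.29 and −0.27, adjusted p = 0.0532, 0.0704 and 0.0676). In KO it changed by −0.12 (adjusted p = 0.467).

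The dolichol phosphate mannose synthase supplies the mannose for these steps. Its small subunit Dpm2, which also associates with the enzyme of the opening step, had 11.31, 11.28 and 11.39 in untreated KO cells, 11.33, 11.24 and 11.21 at 2 h and 10.92, 11.07 and 10.97 at 4 h (−0.34, adjusted p = 0.0137). In HET it had 11.58, 11.37 and 11.28 untreated, 11.20, 11.25 and 11.14 at 2 h and 11.11, 10.89 and 11.09 at 4 h (−0.38, adjusted p = 0.00332). In both genotypes the 4 h arrays lay below all others of the genotype. The KO call was lost without untreated replicate 3 or 4 h replicate 1 (−0.31 in both cases, adjusted p = 0.0649 and 0.0681). Dpm1, the catalytic subunit, had 10.00, 9.89 and 9.93 in untreated KO cells, 9.71, 9.77 and 9.72 at 2 h and 9.61, 9.73 and 9.87 at 4 h. Its HET values were 9.78, 9.92 and 9.74 untreated, 9.33, 9.67 and 9.55 at 2 h and 9.47, 9.56 and 9.44 at 4 h. It had −0.20 at both times in KO (adjusted p = 0.373 and 0.167) and fell in HET after 2 h and 4 h (−0.30 and −0.32, adjusted p = 0.0376 and 0.0126). With quantile normalization the HET changes of Dpm1 were −0.11 (adjusted p = 0.473) and 0.00 (adjusted p = 0.977). Its 2 h call was also lost with arrays centred (−0.26, adjusted p = 0.0649), with a robust prior and intensity trend (adjusted p = 0.072), without HET replicate 1 at all times (−0.22, adjusted p = 0.171), and without HET untreated replicate 1, 2 or 3 (adjusted p = 0.0605, 0.157 and 0.0507) or 2 h replicate 1 or 3 (−0.20 and −0.31, adjusted p = 0.207 and 0.0593), and its 4 h call without untreated replicate 2 (−0.27, adjusted p = 0.062). Mpdu1, needed for the use of the mannose donor, had 12.04, 11.78 and 12.12 in untreated KO cells, 12.01, 11.88 and 11.97 at 2 h and 11.55, 11.66 and 11.86 at 4 h (−0.29, adjusted p = 0.233, or 0.0476 with the block). The HET arrays gave 12.04, 12.18 and 11.87 untreated, 11.47, 12.02 and 11.75 at 2 h and 11.24, 11.72 and 11.55 at 4 h (−0.53, adjusted p = 0.0126). The HET call of Mpdu1 was lost without HET replicate 1 at all times (−0.39, adjusted p = 0.0522), 4 h replicate 1 (−0.40, adjusted p = 0.0733) or untreated replicate 2 (−0.45, adjusted p = 0.0582).

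Among the later genes, Pign, Mppe1, Pigu and Pgap6 passed. Pign, which puts ethanolamine phosphate on the first mannose, had 10.79, 10.77 and 10.84 in untreated KO cells, 10.59, 10.56 and 10.62 at 2 h and 10.72, 10.74 and 10.84 at 4 h (−0.04 at 4 h, adjusted p = 0.843). In HET it had 10.69, 10.83 and 10.83 untreated, 10.67, 10.72 and 10.81 at 2 h and 11.33, 10.93 and 11.01 at 4 h, and there it rose (0.30, adjusted p = 0.0177). The highest HET array was replicate 1, and without it at 4 h the change was 0.18 (adjusted p = 0.0963), or 0.14 (adjusted p = 0.171) without it at all times. With array weights it was 0.17 (adjusted p = 0.0647). Without HET untreated replicate 1 alone it was 0.26 (adjusted p = 0.0587). Mppe1, which takes the ethanolamine phosphate off the second mannose, had 9.22, 9.23 and 9.18 in untreated KO cells, 9.09, 8.90 and 9.14 at 2 h and 9.20, 9.09 and 9.37 at 4 h (0.01 at 4 h, adjusted p = 0.961). Its HET values were 9.19, 9.23 and 9.13 untreated, 8.88, 8.98 and 9.29 at 2 h and 9.54, 9.47 and 9.49 at 4 h (0.32 at 4 h, adjusted p = 0.0245). Its HET call was lost without HET replicate 1 at all times (0.30, adjusted p = 0.0623), 4 h replicate 1 (0.30, adjusted p = 0.0761) or untreated replicate 3 (0.29, adjusted p = 0.083). Both genes thus passed in HET and not in KO, and KO minus HET in the response, −0.34 for Pign and −0.31 for Mppe1, did not pass (adjusted p = 0.573 and 0.695).

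Pigu, the one transamidase subunit that passed, had 12.72, 12.67 and 12.75 in untreated KO cells, 12.78, 12.51 and 12.54 at 2 h and 12.44, 12.51 and 12.30 at 4 h (−0.29, adjusted p = 0.271, or 0.045 with the block). The HET arrays gave 12.51, 12.68 and 12.66 untreated, 12.07, 12.64 and 12.44 at 2 h and 11.69, 12.32 and 12.32 at 4 h (−0.51, adjusted p = 0.0231). Without HET 4 h replicate 1 the change was −0.30 (adjusted p = 0.135), and without untreated replicates 2 or 3 it was −0.47 and −0.48 (adjusted p = 0.0713 and 0.0684). Pigk, Gpaa1, Pigs and Pigt had −0.01 to −0.25 in KO and −0.07 to −0.39 in HET at 4 h and did not pass. Pgap6, a phospholipase A2 that acts on anchored proteins at the cell surface, fell at 4 h in both genotypes. It had 10.95, 10.79 and 11.27 in untreated KO cells, 10.89, 10.46 and 10.99 at 2 h and 10.29, 10.02 and 10.53 at 4 h (−0.73, adjusted p = 0.0133). In HET it had 11.05, 11.13 and 10.85 untreated, 10.07, 10.74 and 10.34 at 2 h and 10.20, 10.34 and 10.05 at 4 h (changes of −0.63 and −0.81 after 2 h and 4 h, adjusted p = 0.0313 and 0.00314). The 4 h arrays lay below the untreated arrays in both. The KO call of Pgap6 was lost without untreated replicate 3 or 4 h replicate 2 (−0.59 and −0.60, adjusted p = 0.0797 and 0.0659), and the HET call at 2 h with array weights (−0.51, adjusted p = 0.0763), without HET replicate 1 at all times (−0.45, adjusted p = 0.221), and without untreated replicate 1 or 2 or 2 h replicate 1 or 3 (−0.61, −0.57, −0.47 and −0.61, adjusted p = 0.0745, 0.11, 0.171 and 0.0733).

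The difference between genotypes in the LPS response passed for none of the 31 genes in limma. At 2 h no gene on the array passed (0%) and at 4 h 0.0513% did. Of the 31, 1 gene had an unadjusted p under 0.05 at each time, beside 1099 of all 19475 genes at 2 h and 1403 at 4 h. The smallest adjusted p was 0.841 at 2 h (Pigh, 0.35) and 0.573 at 4 h (Pign, −0.34). KO minus HET in the response was above 0 for 23 genes at 2 h and 25 at 4 h. The medians were 0.15 and 0.12, against 0.03 and −0.02 for all genes. Leaving out only HET replicate 1 of the LPS time put 17 genes above 0 at 2 h and 14 at 4 h. The medians were then 0.01 and −0.03, against 0.04 and 0.003 for all genes. Dropping the HET arrays numbered replicate 1 from every group left 24 genes above 0 at 2 h and 17 at 4 h. The medians in that fit were 0.062 and 0.055, against 0.030 and −0.006 for all genes. The size of this lean thus rested in part on those arrays, but at 2 h its direction held with all of them dropped. There the median of all genes was above 0 as well, so that this direction was not particular to the pathway. Pigv was the gene most below 0, and Pgap6 at 2 h (0.40) and Pigb at 4 h (0.49) were the genes most above it. The larger number of genes that passed in HET is therefore not shown to be a different response. The KO and HET responses do not share arrays, but each is set against the same untreated arrays at 2 h and 4 h.

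Genes that feed or follow the pathway were counted in the same fit. Of 22 measured genes for dolichol, mannose donors, anchor side chains and transport, none but Pigp passed between KO and HET at any time. With LPS for 4 h 3 of the 22 passed in KO, all lower, among them Dolk, the dolichol kinase (−0.53, adjusted p = 0.00476), and 11 in HET (1 higher and 10 lower), where Dolk had −0.75 (adjusted p = 0.000125). These shares of 13.6% and 50% stand beside 15.8% and 36.4% of all genes. Only 1 of the 22 lay below the 40th percentile of signal in every array. Among all genes above the 40th percentile of mean signal, 26.3% passed in KO and 51% in HET, so that the share in HET was near that background. Dolpp1, which recycles dolichol pyrophosphate, fell in HET at 4 h (−1.68, adjusted p = 0.000371), and Tmed5, of a family of cargo receptors between endoplasmic reticulum and Golgi, rose in HET by 0.45 (adjusted p = 0.00107). Of 28 measured genes for GPI-anchored proteins, 1 passed between genotypes, Prnp at 4 h (−0.83, adjusted p = 0.0397). That is 3.57% at 4 h, beside 2.42% of all genes. Prnp was not examined without HET replicate 1. With LPS for 4 h 5 passed in KO (4 higher and 1 lower) and 9 in HET (6 higher and 3 lower), shares of 17.9% and 32.1% beside the same 15.8% and 36.4%, so that the counts were near the background. Cd14 rose by 0.92 in KO and 0.87 in HET (adjusted p = 0.00119 and 0.000804), and Bst2, an interferon-induced protein with a GPI anchor, by 1.05 and 0.82 (adjusted p = 0.000252 and 0.000988).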

How the data were processed

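RNA of mouse macrophages was measured on 18 Affymetrix gene arrays, 3 per genotype and LPS time. The deposited log2 values are the authors' RMA signals made in Partek 6.5, per the submitters' processing notes. The sources used here do not give the RMA settings. No column was left unused, and the values were analysed as deposited. As these are arrays, there is no read depth, so that 3 arrays a group limit the precision.

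Of 25344 probe sets, 21137 were assigned to 1 gene, giving 19475 genes. For genes with several probe sets, that with the highest mean over all arrays was used. Gene names are those of the platform's annotation, with older symbols matched, so that Wbp7 is the platform's Kmt2b. For Pigy the probe set of Pigyl was used. RefSeq names that gene Pigyl, so that this match is uncertain. The genes and lists were chosen with earlier results of these data known. Each of the 31 genes was kept, with no filter on low values, and 1 of them (Gpld1) lay below the 40th percentile of mean signal. Every gene that passed in any comparison is named with its values, as is the gene with the smallest p between genotypes among those that did not pass in each step.

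One limma 3.58.1 model (R 4.3.3) with 6 group means was fitted to all genes (12 residual degrees of freedom, prior degrees of freedom 3.165, prior SD 0.144), with adjusted p under 0.05 over all genes. For the average over the times, the 3 arrays of a genotype and number were averaged first. Within a genotype, deviations from the group means of same-numbered arrays correlated across genes (r of 0.32 to 0.80, all 18 pairs). Between genotypes they did so above 0.1 in 6 of 27 pairs (−0.353 to 0.390), so that the number was used as a block within genotype, on the basis of the data and not of the labels. Its estimated correlation was 0.398. Alternatives were centring, quantile normalization, dim genes left out, the mean of probe sets, a robust prior with an intensity trend, weights for the arrays, the arrays of 1 contrast alone, blocks by number, HET replicate 1 left out and each array left out. Promoter windows are from RefSeq. Figures were drawn with matplotlib 3.10.9 in Python 3.11.15.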

Additional observations from a re-analysis of the deposited data

How the results depend on the processing

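With 3 arrays per group, calls near the threshold moved with the processing, and no difference that passed changed sign under any alternative run. The counts below are GPI anchor genes that passed, of 31. Percentages in brackets are the shares of all genes tested that passed in the same fit. KO minus HET untreated had 1 (0.416%). It had 0 with quantile normalization (0.246%) or its own arrays alone (0.103%) and 2 with array weights (0.97%). KO minus HET at 2 h had 2 (2.76%). It had 1 with centring (2.3%), quantile normalization (2.23%) or the replicate block within genotype (duplicateCorrelation, 2.65%). It had 0 with its own arrays alone (0.159%) and 0 to 2 with 1 array left out (0.755% to 4.93%). KO minus HET at 4 h had 1 (2.42%). It had 3 with quantile normalization (2.32%), array weights (6.43%), the replicate block over all arrays (6.54%) or HET replicate 1 left out (4.52%). It had 0 with its own arrays alone (0.216%) and 0 to 3 with 1 array left out (0.519% to 3.41%). The average had 0 (0.154%), and 2 with array weights (3.6%), 2 without HET replicate 1 (0.724%) and 1 with the block within genotype (1.79%). With 1 number left out it had 0 to 2 (0% to 0.724%). LPS at 2 h in KO had 1 (3.35%), and 0 with quantile normalization (3.46%), 5 with array weights (11.5%), and 0 with any array left out (2.12% to 2.63%). LPS at 2 h in HET had 4 (15.6%), and 2 without HET replicate 1 (14.3%) or with its own arrays alone (5.73%). It had 7 with the block over all arrays (18.4%), and 9 and 11 with the block within genotype (estimated and fixed, 25.6% and 27.8%). With 1 array left out it had 2 to 4 (9.76% to 16%). LPS at 4 h in KO had 7 (15.8%), and 4 with centring (15%) or quantile normalization (14.7%). It had 13 with array weights (27.2%), 12 without HET replicate 1 (27.7%) and 13 with the fixed block within genotype (28.6%). With 1 array left out it had 2 to 4 (10.4% to 13.7%). With its own arrays alone the same 7 passed, and so did Pigx, Pigb and Pigu, all lower (25.7%). LPS at 4 h in HET had 17 (36.4%), and 14 without HET replicate 1 (35.5%). It had 7 with its own arrays alone (20.5%), fewer than KO in such a fit. With 1 array left out it had 11 to 19 (25.3% to 38%). The larger count in HET than in KO thus did not hold in every fit. The difference in response had 0 under each alternative run (at most 0.591%). Fits of 1 contrast's own arrays rest on fewer arrays. In the model of all arrays the 6 groups share 1 estimate of the spread, so that HET arrays enter the SE of KO changes. Without HET replicate 1 the median LPS change in KO at 4 h stayed at −0.16, while the KO count went to 12. The cause of the changes in counts was not tested. Leaving out dim genes and averaging probe sets changed no count by more than 1.5 times.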
